A study of Mus musculus with 6 samples.

Results

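The Sm core proteins form the ring that holds the small nuclear RNAs of the spliceosome, and the 8 mouse genes that encode them are described here through their splicing scores. The genes are Snrpb, Snrpd1, Snrpd2, Snrpd3, Snrpe, Snrpf, Snrpg and Snrpn. They were chosen by gene symbol, and all 8 had a row among the 15705 genes of the deposited table. Cultured cortical neurons that received either of a pair of viruses were compared, with 3 libraries in each group. All cultures came from C57BL/6 mouse embryos at embryonic day 18 and met lentivirus after 7 days in vitro, for 3 days. The control virus, FCK1.3GW, carried EGFP, and the other virus, FCK1.3GW-N40K, carried N40K, an N-terminal fragment of the U1 snRNP protein encoded by Snrnp70. The labels also spell these vectors FCK.13GW and FCK.13GW-N40K. Both constructs had a short CaMKII promoter, which favours excitatory neurons, a viral element that stabilises RNA (WPRE) and long terminal repeats. The share of cells that took up virus, and whether the replicates were separate cultures, are not stated in the labels. The p-values therefore reflect the spread among these libraries alone, which may be technical.

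Each Sm protein carries the Sm fold, and one copy each of B, D1, D2, D3, E, F and G closes into a ring around the Sm site of the U1, U2, U4 and U5 small nuclear RNAs. The proteins come to the ring as the pairs D1-D2 and B-D3 and the trio E-F-G, and the SMN complex loads them onto the RNA in the cytoplasm. SmN, the product of the imprinted gene Snrpn, is a close relative of SmB that takes its place in neurons. U1 is the particle that pairs with the start of introns, and Snrnp70 encodes one of the proteins specific to it, beside the shared Sm ring.

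The values are Sd scores, read here as splicing deficiency: 1 number per gene and library, for which a higher value is taken to mean more unspliced relative to spliced RNA. The sources used here do not give the formula, its treatment of length or the reads behind each score, so no interval from counting can be given. A score does not give the level of a gene's RNA, and the cell type could not be checked by marker levels. All 10 neuronal marker genes looked for and 11 of 14 markers of glia, vessels and connective tissue had a score, which shows only that they were listed. Library medians over all genes were 0.0127 to 0.0136 in control neurons and 0.0146 to 0.0163 in N40K neurons.

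Because U1 acts at the first bases of introns, the start of introns of Sm genes was read from GENCODE M21 transcript sequences (build GRCm38), wherever a transcript of the gene runs on across that boundary. This gave 9 of the 30 introns of the 7 genes other than Snrpd1, which was not read, and none in Snrpf or Snrpn. The windows below show 10 bases of exon and 10 of intron, 5′ to 3′, with the last 3 exon bases and first 6 intron bases in capitals, the stretch that can pair with U1.
Snrpg intron 1: agctgaaGAAGTGAGTagag
Snrpg intron 3: tggcatgGTGGTGAGTaagg
Snrpb intron 2: ggaagatCAAGTAAGGagag
Snrpb intron 5: cctcctcCAGGTGAGTatcg
Snrpd2 intron 1: cctacacCATGTGAGGccgg
Snrpd3 intron 2: gaactgtCAGGTATCCtgct
Snrpe intron 1: gcagcccATCGTATCCtacg
Snrpe intron 3: ttgtattATTGTGAGTaccc
Snrpe intron 4: aaacaacTGGGTAAGGagat
Against the sequence CAGGTAAGT, the full complement of the U1 end, both Snrpg windows matched at 6 of 9 bases and the Snrpb windows at 7 and 8. Over 28320 intron starts read in the same way the median was 6 matches, and 8.4% had 8 or more. The 3 Snrpe windows matched at 3, 5 and 6 bases, and those of Snrpd2 and Snrpd3 at 6. Snrpe intron 1 and Snrpd3 intron 2 open with GTATCC, the letters that begin many introns of the minor (U12) class, as did 189 of the 28320 intron starts (0.667%), counted on the transcribed strand. The scores are given per gene and cannot be assigned to an intron.

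Of the 8 Sm genes, 2 fell and 0 rose with N40K, both falls being in the E-F-G trio. Over all genes, 4.11% fell and 21.5% rose (limma, Benjamini-Hochberg adjusted p under 0.05, scores as deposited). Snrpg, which encodes SmG, had a mean score ratio of 0.643 and Snrpf, which encodes SmF, 0.739. The other 6 genes did not pass the test; at an unadjusted limma p under 0.05, Snrpd3 was higher (1 gene) and the same 2 were lower, where 31.2% of all genes were higher and 7.32% lower. All 3 N40K scores lay below all 3 control scores for 3 Sm genes (Snrpg, Snrpf and Snrpb), where 8.67% of all genes did so, and above them for 2 (Snrpd3 and Snrpn), where 33.6% did. The median ratio was 0.923 over the Sm genes and 1.11 over all genes. Ratios were under 1 for 5 of the 8 Sm genes and for 5069 of all 15705 genes. In bulk libraries a changed mix of cells and a changed score within cells cannot be told apart. A ratio of this kind also cannot separate less unspliced RNA from more spliced RNA.

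**Figure D1:**
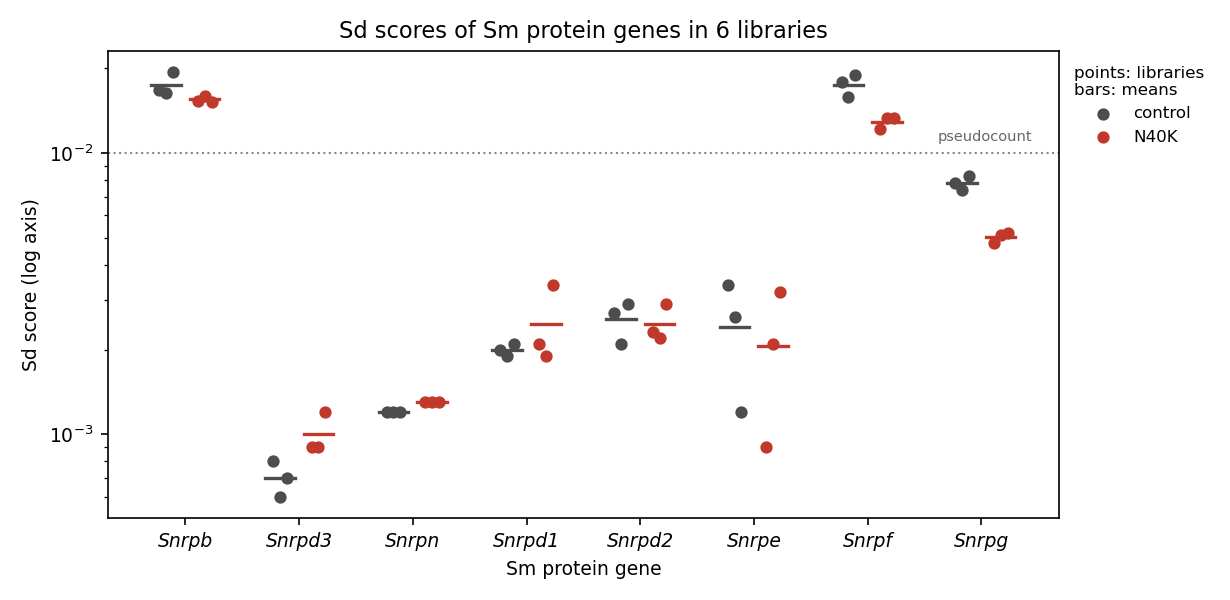
Sd score (vertical, log axis) of each Sm gene in the 3 control and 3 N40K libraries; points are libraries, bars are group means, and the dotted line is the 0.01 added before taking logs. The N40K points of Snrpg (0.0048 to 0.0052) and Snrpf (0.0122 to 0.0133) lie under all of their control points, while the mean scores of 5 genes lie under 0.003.

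SmG, SmF and SmE form the trio that enters the ring as a unit. Snrpg scored 0.0078, 0.0074 and 0.0083 in the control libraries and 0.0048, 0.0051 and 0.0052 in the N40K libraries. The groups were separated by a gap wider than the spread within either of them. The mean fell from 0.00783 ± 0.000451 to 0.00503 ± 0.000208 (SD, n = 3), a log2 change of -0.25 ± 0.03 (SE) on the log2(score + 0.01) scale (limma adjusted p = 0.00533). That scale understates changes of scores near or under 0.01: without a pseudocount the fitted ratio of Snrpg was 0.643, with a 95% interval of 0.559 to 0.740. Snrpg was lower with an adjusted p under 0.05 in all 19 alternative settings tried, with a highest adjusted p of 0.0353. The setting without a filter repeats the reported fit, since the filter (a score above 0 in at least 3 libraries) removed 0 genes.

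Snrpf scored 0.0178, 0.0158 and 0.0189 in control neurons and 0.0122, 0.0133 and 0.0133 in N40K neurons. The lowest control score was above the highest N40K score. The mean fell from 0.0175 ± 0.00157 to 0.0129 ± 0.000635 (SD, n = 3), a log2 change of -0.26 ± 0.06 (SE) (limma adjusted p = 0.031). Without a pseudocount the fitted ratio was 0.740, with an interval of 0.626 to 0.876. The call was made with all 6 libraries but ended without control 1, control 3, N40K 1, N40K 2 or N40K 3 (limma adjusted p from 0.0674 to 0.0929), and held without control 2 (0.0423).

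Snrpe, the third gene of the trio, scored 0.0034, 0.0026 and 0.0012 in control neurons and 0.0009, 0.0021 and 0.0032 in N40K neurons. Both groups covered nearly the same range, and the spread within a group was the widest of the 8 genes, with a coefficient of variation of 46.4% in control and 55.7% in N40K libraries. The fitted ratio without a pseudocount was 0.829, with an interval of 0.305 to 2.26 (limma adjusted p = 0.789), which holds the ratios of both Snrpg and Snrpf. A fall of their size in Snrpe was therefore not detectable here.

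SmB and SmD3 enter the ring as a pair. Snrpb scored 0.0168, 0.0163 and 0.0194 in control neurons and 0.0153, 0.016 and 0.0152 in N40K neurons. The groups did not overlap, but 0.016 and 0.0163 were close to each other and the difference did not pass the test (log2 change -0.11 ± 0.06, limma adjusted p = 0.272). Its fitted ratio was 0.888, with an interval of 0.755 to 1.05. Snrpb passed as lower only after centring each library on its median (adjusted p = 0.0389) and after quantile normalization (0.0374), of the 19 alternatives.

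Snrpd3 had the lowest scores of the 8 genes, 0.0008, 0.0006 and 0.0007 in control neurons and 0.0009, 0.0009 and 0.0012 in N40K neurons. The N40K scores were all higher, by 1 to a few steps of the last deposited decimal, which is 11.8% of its mean score. The ratio of means was 1.43 (log2 change 0.04 ± 0.01, limma adjusted p = 0.102). Without a pseudocount the interval of the fitted ratio was 1.08 to 1.89, and the adjusted p over all genes was 0.0706, so the gene did not pass. Within this pair the 2 genes thus had ratios on opposite sides of 1 with scores as deposited, and neither passed.

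Snrpn, the neuronal relative of Snrpb, scored 0.0012 in every control library and 0.0013 in every N40K library. The groups were apart by exactly 1 step of the last decimal, and a spread of 0 within groups reflects that rounding. The fitted ratio was 1.08, with an interval of 0.974 to 1.20 (limma adjusted p = 0.234 without a pseudocount). This interval and p-value rest on the spread that limma borrows from other genes, and do not account for rounding. The score of Snrpn was far below that of Snrpb (0.0175 ± 0.00166 in control neurons, SD, n = 3), although it is not known whether scores of different genes compare per length. The spliced RNAs of the pair align over 687 bases at 80.9% identity. The identifier given for Snrpn belongs, in GENCODE M21, to Gm38393, a gene model that overlaps Snrpn and Snurf on the same strand, so the transcripts behind this score are uncertain.

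SmD1 and SmD2 form the other pair. Snrpd1 scored 0.002, 0.0019 and 0.0021 in control neurons and 0.0021, 0.0019 and 0.0034 in N40K neurons. One library, N40K 3, stood above the other 5, and without it the log2 change went from 0.05 to -1.7e-05. The fitted ratio with all libraries was 1.19, with an interval of 0.810 to 1.76 (limma adjusted p = 0.468 without a pseudocount). Snrpd2 scored 0.0027, 0.0021 and 0.0029 in control neurons and 0.0023, 0.0022 and 0.0029 in N40K neurons. Its groups overlapped almost fully, with a fitted ratio of 0.963 and an interval of 0.722 to 1.28 (adjusted p = 0.854). Neither gene passed. The interval of Snrpd2 holds the ratio of Snrpf, and that of Snrpd1 ends above it.

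**Figure D2:**
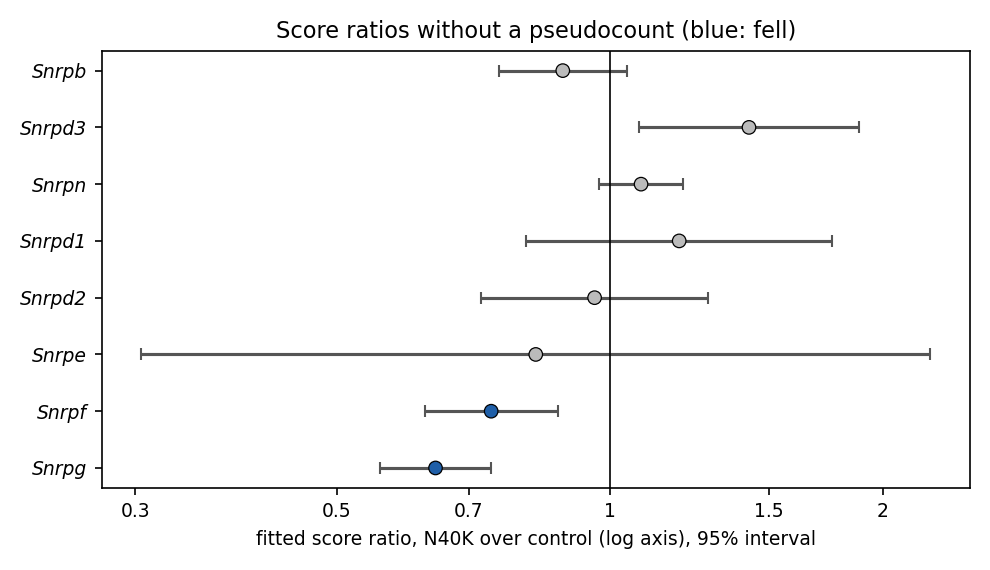
Fitted ratio of Sd scores, N40K over control (horizontal, log axis), from the fit without a pseudocount, with 95% intervals from limma, for each Sm gene. The intervals of Snrpg (0.559 to 0.740) and Snrpf (0.626 to 0.876) lie under 1, that of Snrpe reaches from 0.305 to 2.26, and blue marks the genes that fell.

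The Sm genes differed more from each other than between the conditions. In control neurons the order of mean scores was Snrpf and Snrpb (0.0175 each), Snrpg (0.00783), Snrpd2 (0.00257), Snrpe (0.0024), Snrpd1 (0.002), Snrpn (0.0012) and Snrpd3 (0.0007). Neighbours in this order overlapped for Snrpf with Snrpb, Snrpd2 with Snrpe, and Snrpe with Snrpd1, and were apart elsewhere. In N40K neurons Snrpb (0.0152 to 0.016) stood above Snrpf (0.0122 to 0.0133) without overlap. The mean scores of Snrpb and Snrpf lay above 52.4% and 50.6% of all genes, that of Snrpg above 30.2%, and those of the remaining 5 genes above 2.03% to 11.8%.

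The genes that fell did not stand apart by the number or length of their introns. Their mean scores over the 6 libraries, 0.0152 for Snrpf and 0.00643 for Snrpg, lay above 0.003. Snrpb (0.0165), which did not pass, lay above it too. The other 5 genes lay under 0.003, where the last deposited decimal is 3.97% to 11.8% of the mean score. Snrpg and Snrpf each have 3 introns in their principal GENCODE M21 transcript, with 6970 and 5817 intron bases, as against 3 introns and 16795 bases in Snrpd3 and 2 introns and 2401 bases in Snrpd2. Over the 8 genes, mean control score and total intron length had a Spearman rho of -0.69, and mean control score and the ratio of intron to exon length one of -0.14, both descriptions over few genes that share the same libraries. Annotated transcripts with a retained intron number 2 for Snrpb, 1 each for Snrpg, Snrpd1, Snrpd2 and Snrpd3, and 0 for Snrpe, Snrpf and Snrpn. Snrpf has 1 transcript in all. An antisense gene, Gm44941, overlaps Snrpg, and Ccdc38 and 4933408J17Rik overlap Snrpf on the opposite strand; Gucd1 does so for Snrpd3. Processed pseudogenes with at least 90% identity over at least 80% of their length numbered 4 each for Snrpg and Snrpf, 2 each for Snrpd2, Snrpe and Snrpn, 1 for Snrpd1 and 0 for Snrpb and Snrpd3. The closest copy of Snrpg was 100.0% identical, and those of Snrpd2, Snrpe, Snrpf, Snrpn and Snrpd1 were 98.9%, 98.9%, 98.8%, 98.0% and 97.8% identical. The scores of these 6 genes are uncertain if reads of such copies were counted. The part of overlapping genes, pseudogenes and the level of the scores in the result was not tested.

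**Figure D3:**
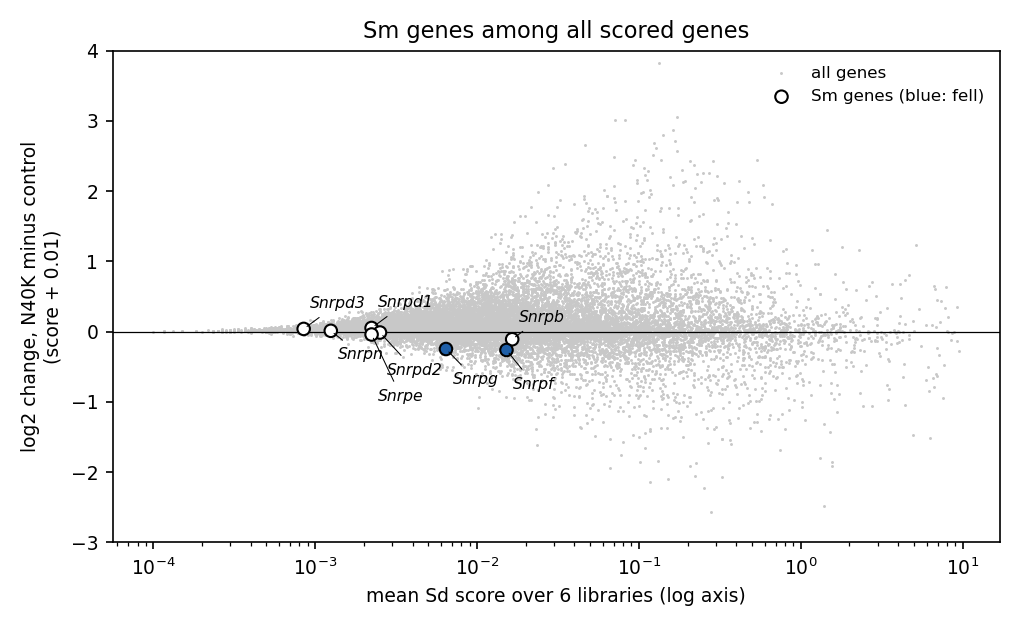
Mean Sd score over the 6 libraries (horizontal, log axis) against the log2 change with N40K (vertical, on score + 0.01), with all genes in grey and Sm genes as circles, blue where they fell; 68 genes with a mean score above 10 are not drawn. Changes of low scores are pressed towards 0 by the pseudocount, and 6 of the 8 Sm genes have a mean score under it.

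Scaling between libraries changed how many Sm genes passed, while Snrpg and Snrpf were lower under each scaling tried. Over all genes, 3372 rose and 645 fell with scores as deposited. Centring each library on its median, which moved the median change of all genes from 0.06 to -0.07 (log2), gave 1531 rises and 2883 falls. It gave 6 falls among the Sm genes, where 18.4% of all genes fell and 9.75% rose: Snrpg, Snrpf, Snrpb, Snrpd2, Snrpd3 and Snrpn. This centring lowered the log2 change of every gene by the same 0.13, which took Snrpd3 and Snrpn, at 0.04 and 0.01 with scores as deposited, to -0.09 and -0.12. When the pseudocount was dropped and libraries were centred on their median deviation, the log2 change of Snrpd3 was 0.34 and that of Snrpn -0.05, and neither passed (limma adjusted p = 0.115 and 0.623). Quantile normalization gave 3 falls (Snrpg, Snrpf and Snrpb), where 12.0% of all genes fell and 12.9% rose. Cyclic loess normalization gave 2, Snrpg and Snrpf, where 10.6% of all genes fell and 13.6% rose. Centring each library on the median of its genes' deviations also gave those 2, where 9.67% fell and 14.2% rose. No Sm gene rose in any of these fits or in the other alternatives.

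**Figure D4:**
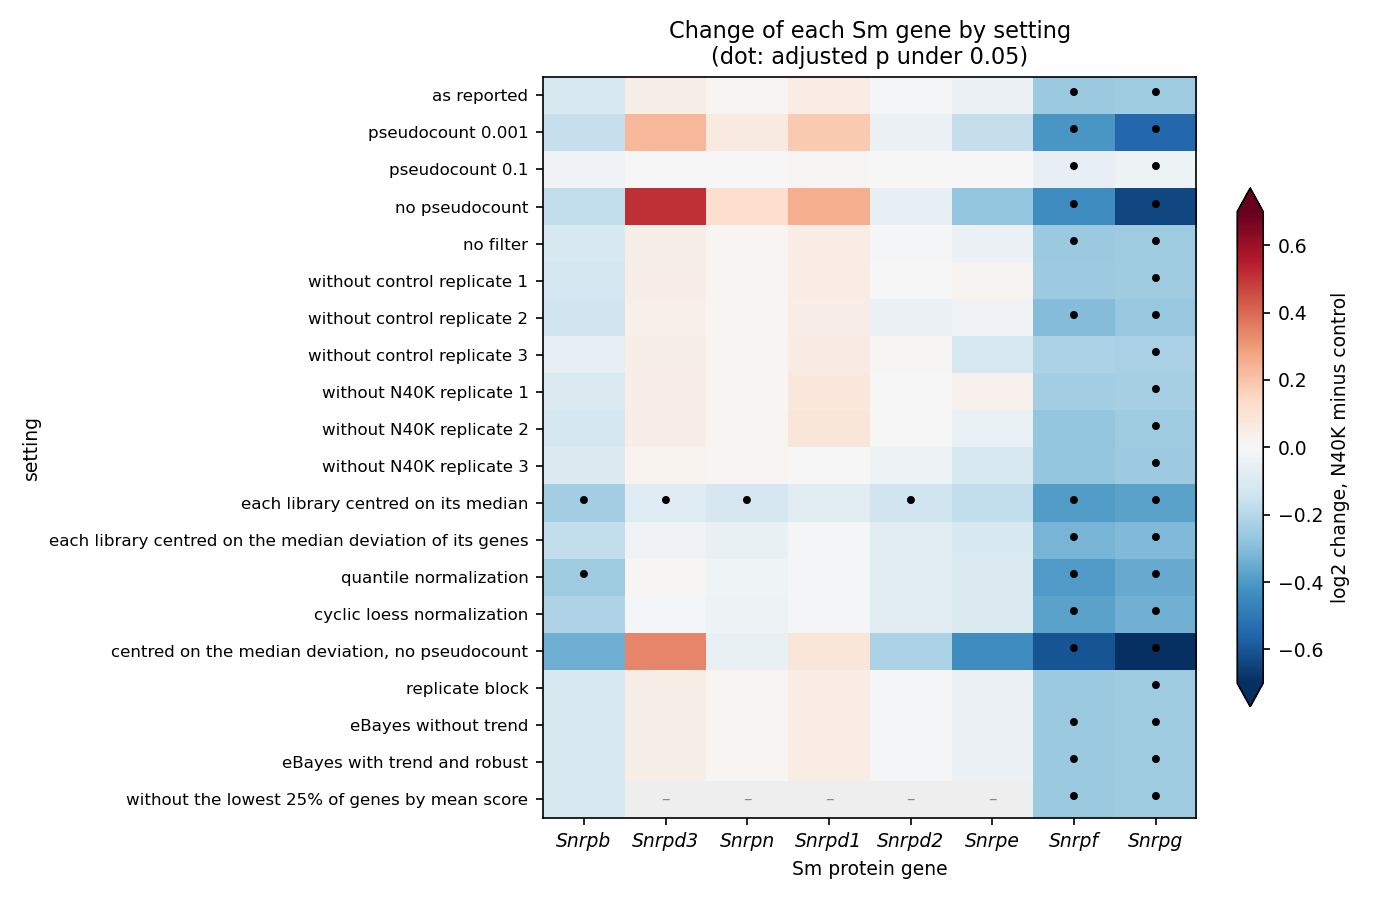
Log2 change of each Sm gene (columns) under each setting (rows), coloured from blue (lower with N40K) to red (higher), with a dot where the limma adjusted p was under 0.05 and a dash where the gene was filtered out. Snrpg carries a dot in every row, Snrpf in all but 6, and the other dots stand in 2 rows, for centring each library on its median and quantile normalization.

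Of the 3 genes of the proteins that complete U1 around the Sm ring, 0 passed the limma test with scores as deposited. Over all genes, 21.5% rose and 4.11% fell in that fit. Snrpc, which encodes a U1-specific protein that helps it hold the start of introns, scored 0.0116, 0.0143 and 0.0109 in control neurons and 0.0073, 0.0086 and 0.0104 in N40K neurons, a ratio of 0.715 (limma adjusted p = 0.0898). All 3 of its N40K scores lay below all 3 control scores, as they did in 8.67% of all genes. Snrpa, which encodes a U1-specific protein that binds the U1 RNA, had a ratio of 0.773 (limma adjusted p = 0.0941). Both genes passed as lower in all 5 fits that rescale the libraries. Of all genes, 18.4% fell after centring on library medians, and 9.67% to 12.0% in those of the other fits that kept the pseudocount. Without the pseudocount, 1410 of 15705 genes fell. Snrnp70, the gene from which N40K derives, had a ratio of 1.08 (limma adjusted p = 0.376). Its N40K scores (0.0224 to 0.0242) all lay above its control scores (0.021 to 0.0223), as they did in 33.6% of all genes. Whether transgene reads could count towards Snrnp70 is not stated.

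Of 24 genes whose products build, modify and carry the Sm ring, 5 rose (20.8%) and 1 fell (4.17%) with scores as deposited. These shares were near those of all genes (21.5% and 4.11%). Of 9 genes of the SMN complex, 1 rose and 1 fell, with a median log2 change of -0.05. The number that fell became 3 after centring on library medians or quantile normalization, and 2 after cyclic loess, with 1 rise in each. Of all genes, 18.4%, 12.0% and 10.6% fell in these fits, in that order. Gemin4 fell, from 0.1396, 0.1261 and 0.1451 in control neurons to 0.0739, 0.0723 and 0.0798 in N40K neurons, a ratio of 0.550 (limma adjusted p = 0.00387). Gemin5, the subunit that recognises small nuclear RNAs, rose from 0.0062, 0.005 and 0.0048 to 0.0086, 0.0085 and 0.0095 (ratio 1.66, adjusted p = 0.00934). In both genes the groups were well apart. Of 7 genes of Sm methylation and chaperoning, 2 rose and 0 fell. They were Prmt7, an arginine methyltransferase of Sm proteins (ratio 1.64, adjusted p = 0.00416), and Carm1, another arginine methyltransferase (1.24, 0.0208). The number that rose became 0 after centring on library medians, where 9.75% of all genes rose. It was 1 in the other 4 fits that rescale the libraries. Of all genes, 12.9% to 14.2% rose in those that kept the pseudocount, and 2533 of 15705 in that without it. Prmt5, the main methyltransferase of SmB, SmD1 and SmD3, did not pass (adjusted p = 0.542). Of 8 genes of the export, capping and import of these particles, 2 rose and 0 fell. The 2 were Snupn, whose product snurportin brings the particles back into the nucleus (ratio 1.76, limma adjusted p = 0.00365), and Ncbp1, of the cap-binding complex (1.68, 0.0149).

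The LSm proteins are relatives of the Sm proteins, and some of them form the ring of U6 and a ring of messenger RNA decay. Among the LSm genes listed, 0 rose and 1 fell. The number that fell became 6 after centring on library medians, where 18.4% of all genes fell. It was 3 in each of the other 4 fits that rescale the libraries. Of all genes, 12.0% fell after quantile normalization, 10.6% after cyclic loess and 9.67% after centring on the median deviation. That last centring without a pseudocount gave 1410 falls among 15705 genes. The LSm list held 13 genes with 14 rows, since Lsm3 is listed under 2 identifiers, and its median log2 change was -0.05. Lsm7 fell from 0.0325, 0.0288 and 0.0257 to 0.0155, 0.0155 and 0.0146, a ratio of 0.524 (limma adjusted p = 0.00536). Of 26 scored proteins of the U2, U4/U6 and U5 particles, 3 rose and 0 fell, and the median log2 change was 0.02. This balance depended on scaling, with 2 rises and 4 falls after centring on library medians, and 2 rises and 2 falls after quantile or cyclic loess normalization. Of all genes, 9.75% rose and 18.4% fell after centring on library medians. The shares were 12.9% and 12.0% after quantile normalization, and 13.6% and 10.6% after cyclic loess. Phf5a, a small subunit of the SF3b complex of U2, rose from 0.0098, 0.0095 and 0.0115 to 0.0237, 0.0217 and 0.026, a ratio of 2.32 (adjusted p = 0.00333). Snrnp40, of U5, and Sf3b3, of SF3b, rose with ratios of 1.65 and 1.27 (adjusted p = 0.0152 and 0.0337). At an unadjusted limma p under 0.05 the counts higher and lower were 0 and 2 for the U1-specific proteins, 1 and 1 for the SMN complex, 2 and 0 for methylation and chaperoning, 4 and 0 for export and import, 1 and 2 for the LSm proteins and 3 and 0 for the U2, U4/U6 and U5 proteins, beside 31.2% and 7.32% of all genes. In the 6 partner lists together 8 of 67 rows rose (11.9%) and 2 fell (2.99%), beside 21.5% and 4.11% of all genes.

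The calls of Gemin4, Gemin5, Snupn, Lsm7 and Phf5a held in all 19 alternatives, including the setting without a filter, which repeats the reported fit. Those of Ncbp1 and Snrnp40 ended without control 2 or control 3 (limma adjusted p from 0.0569 to 0.0578). That of Prmt7 was lost when libraries were centred on their medians (0.174). Carm1 lost its call without any library other than N40K 1 or N40K 3 (up to 0.0722), and Sf3b3 without any library other than N40K 1 (up to 0.106). Both also lost it under all 5 fits that rescale the libraries and with the replicate number as a block (0.0840 and 0.0829).

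**Figure D5:**
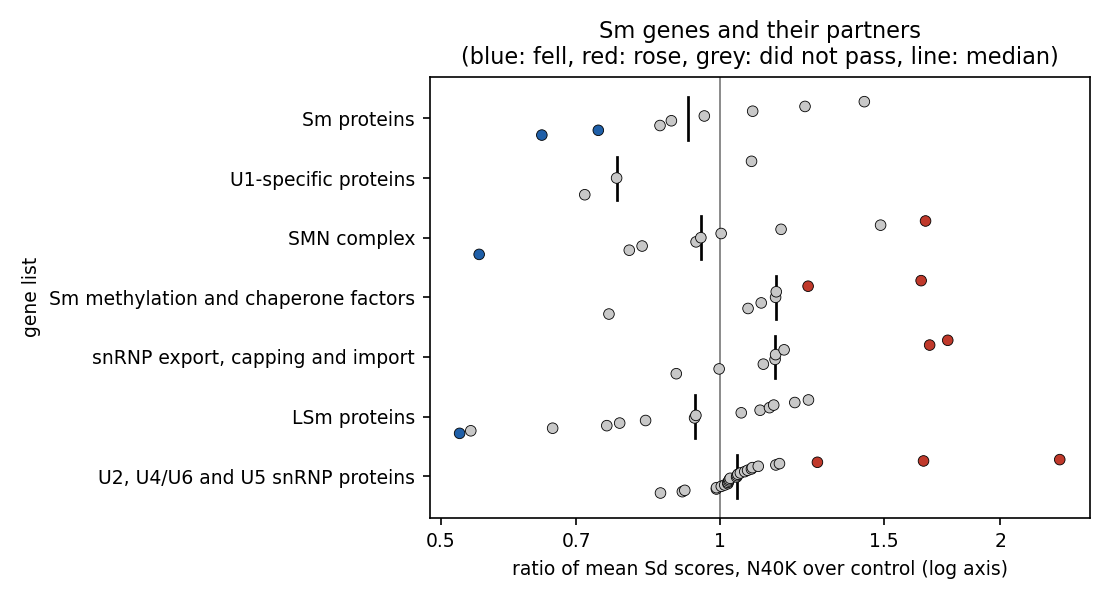
Ratio of mean Sd scores, N40K over control (horizontal, log axis), for the Sm genes and 6 lists of partner genes; each point is a gene, blue fell, red rose, grey did not pass, and the vertical line is the list's median. The Sm list holds 2 blue and 0 red points, and the partner lists hold 2 blue and 8 red points.

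Among the genes whose scores followed the mean log2(score + 0.01) of the 8 Sm genes most closely over the 6 libraries were D130020L05Rik (Pearson r = 0.998), 1110017D15Rik (0.994), Ufd1l (0.993) and Leprel1 (0.990). With 6 points that share libraries and 15705 genes searched, such values are a description of likeness only. None of these 4 genes passed the limma test by itself, with adjusted p-values of 0.0639 for D130020L05Rik, 0.0964 for 1110017D15Rik, 0.140 for Ufd1l and 0.0951 for Leprel1.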

How the data were processed

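The 6 libraries were stranded, made from poly(A) RNA, and read as pairs of 100 bases, per the labels' protocols. The authors deposited 1 table of Sd scores, 1 score per gene and library with 4 decimals; the sources used here do not give its formula, filters, annotation or use of strand. Build mm9, CASAVA, STAR, BWA and bedtools 2.16.1 are listed, with no role, per the submitters' processing notes. Columns were assigned by name, 0 were left unused and 0 pairs were identical. Read totals are not in the table, so depth is unknown.

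The test was limma 3.58.1 (R 4.3.3, eBayes with trend, 2-sided) on log2(score + 0.01) over all 15705 genes, with Benjamini-Hochberg adjustment and a threshold of 0.05; the filter, above 0 in at least 3 libraries, removed 0 genes. "Rose" and "fell" mean passing that test. The members, the partner lists, the test and the alternatives were chosen with earlier results of these data known. Named genes were the 8 Sm genes, Snrnp70, Snrpa and Snrpc, up to 3 called genes with the smallest p per partner list, and the 5 genes most correlated with the Sm mean, 1 of which is not reported here; Prmt5 was added after its value was seen. Gene models came from GENCODE M21, on another build than mm9, so no coordinates are printed; pseudogene copies were found with blastn 2.17.0. The fit was tested on simulated data. Alternatives were other pseudocounts, filters, spread estimates and scalings, each library left out, and the replicate number as a block. The alternative without a filter repeats the main fit, since the filter removed 0 genes.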

Additional observations from a re-analysis of the deposited data

How the results depend on the processing

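Among the Sm genes 0 rose under all 19 alternatives. The number that fell (2) became 6 when libraries were centred on their medians, where 18.4% of all genes fell. It ranged from 1 to 2 with a library left out, where 303 to 486 of 15705 genes fell, against 645 in the main fit. Whether same-numbered libraries were prepared together is not stated in the labels. Their deviations from group means correlated at -0.07, 0.04 and -0.02 across genes, which gives no sign of pairing but cannot exclude it. With the replicate block 1 Sm gene fell, as Snrpf did not pass (limma adjusted p = 0.084), and of the partner genes named Carm1 and Sf3b3 lost their calls. Over all genes, 328 of 15705 fell with that block. The median log2 change of the Sm genes (-0.03) became -0.10 with a pseudocount of 0.001, -0.11 with none, -0.25 over the 3 genes left by the stricter filter, -0.16 after centring on library medians, -0.091 after centring on the median deviation, -0.092 after quantile normalization, -0.087 after cyclic loess, and -0.28 with deviation centring but no pseudocount; with a library left out it lay between -0.07 and 0.01. Single genes turned in direction as follows. Centring on library medians lowered every log2 change by the same 0.13, and centring on the median deviation also shifts all genes alike, so smaller rises turned by construction; the cause of the other turns was not tested. After centring on library medians, log2 changes were -0.091 for Snrpd3, -0.077 for Snrpd1, -0.12 for Snrpn, -0.053 for Snrnp70 and -0.0077 for Carm1. After centring on the median deviation they were -0.026 for Snrpd3, -0.012 for Snrpd1 and -0.053 for Snrpn, and in that centring without a pseudocount -0.054 for Snrpn and -0.058 for Snrnp70, while Snrpd3 (0.34) and Snrpd1 (0.086) kept their direction. After quantile normalization they were -0.0097 for Snrpd1, -0.032 for Snrpn and -0.063 for Snrnp70, and after cyclic loess -0.0060 for Snrpd3, -0.0075 for Snrpd1, -0.038 for Snrpn and -0.023 for Snrnp70. With a library left out, Snrpd1 ranged from -1.7e-05 to 0.086, turning without N40K 3, Snrpe from -0.11 to 0.031, turning without control 1 or N40K 1, and Snrpd2 from -0.038 to 0.0077, turning without control 3 or N40K 2. The last deposited decimal limits Snrpd3 and Snrpn most, at 11.8% and 8% of their mean scores.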
